A study of Mus musculus with 38 samples.

Results

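The clustered protocadherin genes lie in 3 neighbouring arrays on mouse chromosome 18, named alpha, beta and gamma. The members were all chromosome 18 genes of the GENCODE vM1 annotation (NCBIM37, the assembly of mm9) whose symbol was Pcdha, Pcdhac, Pcdhb, Pcdhga, Pcdhgb or Pcdhgc followed by digits, which gave 25 of the 37310 annotated genes. The annotation listed 2 of them in the alpha array (Pcdha11 and Pcdha3), 22 in the beta array (Pcdhb1 to Pcdhb22, with the pseudogene Pcdhb20) and 1 in the gamma array (Pcdhgc5), because it gathers nearly all alpha transcripts under Pcdha11 and all gamma transcripts under Pcdhgc5. The alpha genes spanned chr18:37089939-37347311, the beta genes chr18:37424652-37681073 and the gamma genes chr18:37833989-38001527. With 50 kb added on each side, the 3 windows covered 0.959 Mb, counted once where the alpha and beta windows overlap.

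Clustered protocadherins are cadherin-like cell surface proteins best known from neurons, where single cells use different combinations of them and the combination serves as an identity tag for self-recognition. Each alpha or gamma protein is made from a single large variable exon, with a promoter of its own, spliced to 3 small constant exons shared by the whole array, whereas each beta gene is a single large exon without constant exons. Most of these promoters can bind CTCF, the DNA-binding protein that together with cohesin forms chromatin loops, and promoter choice depends on loops to enhancers that lie beyond the variable exons. SATB1 is a nuclear protein of thymocytes, neurons and keratinocytes that binds base-unpairing regions (BURs), AT-rich stretches that readily lose base pairing under torsional strain.

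Peak lists of 11 samples were compared: a BUR map made in vitro with purified DNA, urea ChIP-seq of SATB1 in brain cortex cells, thymocytes and skin keratinocytes (2 replicates each), standard ChIP-seq of SATB1 in thymocytes (2 replicates), and urea ChIP-seq of CTCF in thymocytes and skin (1 list each). A further thymocyte CTCF sample is labelled but not analysed here. All cells came from wild-type (Satb1+/+) C57BL/6 mice, so no group carried a deletion, transgene or treatment. The labels give conflicting ages: 5 and 6 weeks for the brain replicates by their characteristics and postnatal day 13 by their protocol, day 13 and day 5 in the same way for skin, and day 13 for thymocytes, with 6 weeks in the titles of thymocyte CTCF and of standard replicate 1. The study's methods give still other ages for brain and skin. In urea ChIP-seq, crosslinked chromatin is first purified through urea. Antibody 1583D was used for all urea SATB1 lists and for standard replicate 2, and antibody ab109122 for standard replicate 1. Standard replicate 1 was also sonicated differently, and it alone of that pair has 6 weeks in its title. Antibody, sonication, labelled age and replicate therefore cannot be told apart there. The study's checklist describes replicates as cells from different animals, but the labels name no animals. The titles give the same experiment code to both brain replicates, which differ there in cycle number. Titles of the 2 thymocyte urea SATB1 replicates share a code up to its last letter, as do those of the 2 skin SATB1 replicates. If such replicates share cells, p-values measure only a technical spread. The lists hold no RNA level, so the labelled tissues could not be checked against their marker genes.

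The lists held from 10846 peaks (skin SATB1 replicate 2) to 238380 (BUR map). They give for each peak a fold enrichment over the local background, which is not scaled between samples, and they hold no read counts, so the depth of each list could not be examined. The study describes the aligned reads of its urea libraries as similar in number between cell types. Reads had been kept only where they matched the genome once. Of all 50 bp words in the windows and the gap between them, 86.7% occurred once.

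Since the annotation names only part of the alpha and gamma exons, variable exons were also found directly in the genome sequence as long reading frames similar to annotated ones. This gave 58 frames, 14 alpha, 22 beta and 22 gamma, of which 41 coincided with an annotated variable exon. The alpha and gamma frames are called here by their order from the 5′ end of the array, which is not the gene number, and beta frames by their gene. The last 2 alpha frames (13 and 14) and the last 3 gamma frames (20, 21 and 22) stood apart by sequence, with at most 48.9% amino acid identity to any other frame. They lie nearest the constant exons, the place of the C-type genes Pcdhac1, Pcdhac2, Pcdhgc3, Pcdhgc4 and Pcdhgc5, which are known to be used more constitutively than the others. Pcdhb1 reached 51.2%, and the other 52 frames had between 69.9% and 89.3% identity to their closest relative. Near-identical copies can lose uniquely matched reads: between 72.9% and 100% of the 50 bp words of a frame were unique, and at least 96.7% of those in the 500 bp before it.

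The windows held 108 BURs, or 113 per Mb against 87.5 per Mb over the genome, a ratio of 1.29 (95% binomial confidence interval, exact Clopper-Pearson, 1.06 to 1.55, covering counting error only). The alpha genes held 39 BUR summits and the beta genes 32, but the gamma genes only 12. The median fold enrichment of the BURs was 5.8, close to the 5.88 of the whole map. Their median AT content was 70.9%.

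The BURs lay between the variable exons and not in their coding sequence. The 58 frames made up 14.7% of the windows, and 0 of the 108 BUR summits fell inside a frame. The nearest summit was 254 bp from a frame. The frames had a median GC content of 52.2%, and a median of 92.8% of their 50 bp words were unique, which was measured beside the result and whose part in it was not tested. The untranslated parts of the beta genes differed from the frames: 8 of the 41 annotated variable exons touched a BUR, 8 of 8 of them beta genes, with the BUR summit always after the stop codon. The BUR of highest fold enrichment in the windows, 17.6, was of this kind and lay 2602 bp after the stop codon of Pcdhb16.

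**Figure D1:**
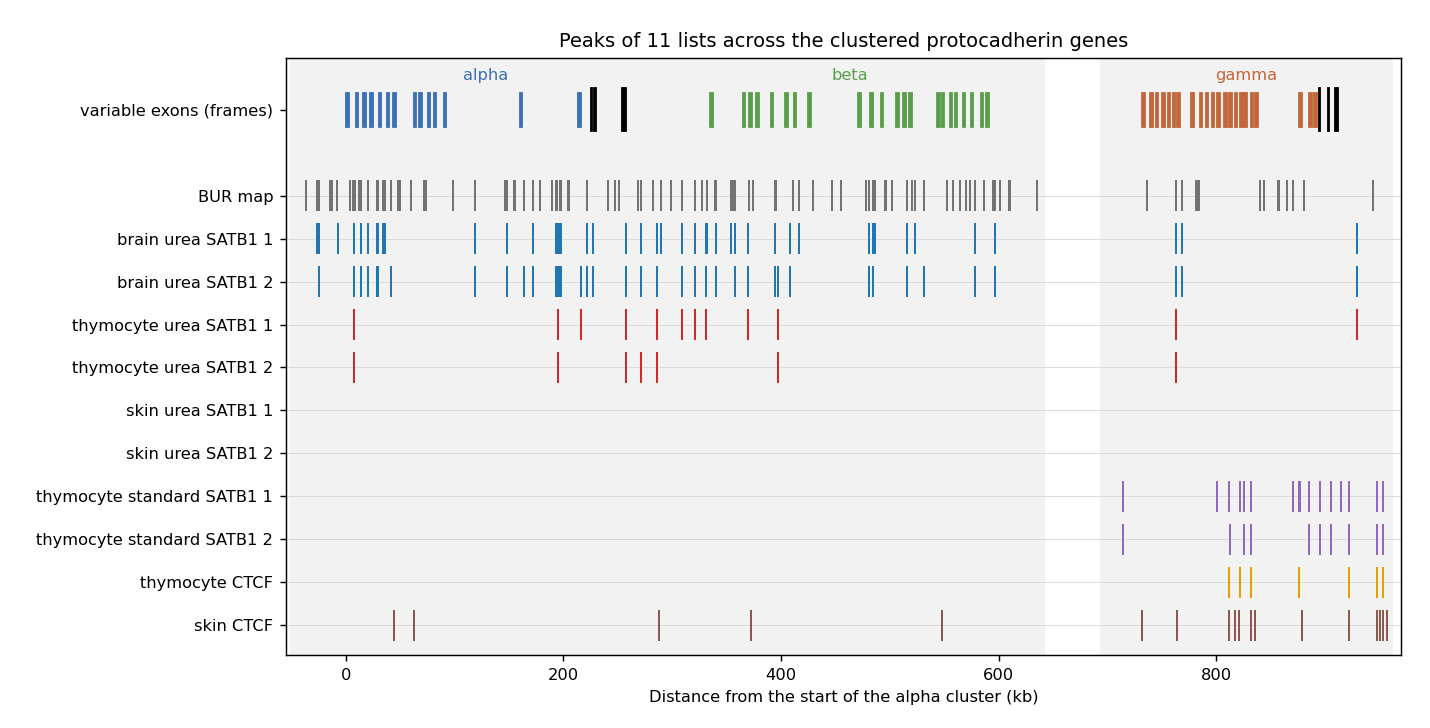
Peaks of the 11 lists along the 3 clusters, with distance from the start of the alpha cluster in kb on the horizontal axis and 1 row per list. Each vertical tick is a peak, grey bands are the windows with 50 kb flanks, coloured boxes at the top are the 58 variable exon frames and black boxes the constant exons. Brain SATB1 ticks lie mostly in and between the alpha and beta arrays, with long gaps, the skin SATB1 rows are empty, and standard SATB1 and CTCF ticks gather at the 3′ end of gamma.

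Urea SATB1 ChIP-seq gave many peaks over the clusters in brain, few in thymocytes and none in skin. Brain replicates 1 and 2 had 44 and 39 peaks in the windows, thymocyte replicates 12 and 7, and the skin replicates 0 and 0, without overlap between tissues. The lists differ in length, and per Mb the brain windows stood at 1.03 and 0.99 times the genome, the thymocyte windows at 0.74 and 0.5 times. The skin lists had 4.14 and 4 peaks per Mb over the genome. The nearest skin peak lay 4.69 kb outside the gamma window in replicate 1 and 221 kb before the alpha window in replicate 2.

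The share of cluster BURs with a urea SATB1 peak followed the same order. In brain 33.3% of the 108 BURs were bound in replicate 1 and 28.7% in replicate 2, beside 37.2% and 34.2% of all BURs of the genome. In thymocytes the cluster shares were 4.63% and 2.78%, beside 14.6% and 12.9% over the genome. In skin they were 0% and 0%, beside 3.71% and 3.64%. The order skin, thymocytes, brain was tested over the 6 samples with the Jonckheere-Terpstra statistic for ordered groups, and its one-sided exact permutation p was 0.0111, the smallest value that 90 arrangements allow (0.0333 after Benjamini-Hochberg adjustment over the 3 comparisons tested). The same order holds over the whole genome, so the clusters are no independent instance of it.

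Set against each list's own genome share, the cluster share also rose from skin over thymocytes to brain. The ratio of cluster share to genome share was 0.868 ± 0.041 in brain, 0.266 ± 0.0721 in thymocytes and 0 in skin (mean ± SD, n = 2 each). The order had a two-sided p of 0.0222 in the exact permutation test, again the smallest possible (adjusted p = 0.0333). With flanks of 200 kb the thymocyte ratio was 0.418 and the skin ratio 0.223, and the p rose to 0.0667.

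The shares depended on how many peaks of each list were used. When every urea SATB1 list was reduced to its 10846 peaks of highest −log10 q, the length of the smallest list, 0 cluster BURs were bound in any of the 6 lists, beside 3.62% to 4.68% of the BURs of the genome, so that no order of tissues could be read, and 1 peak was left in the windows, in thymocyte replicate 2. The best peak of the windows ranked 17480 in brain replicate 1 and 19065 in replicate 2, and 12363 and 10484 in the thymocyte replicates. In an alternative added after seeing the data, the brain lists and the longer thymocyte list were reduced to the shorter one's 38882 peaks. Brain then bound 6.48% of cluster BURs in both replicates, beside 16% and 15.7% of the BURs of the genome. Thymocytes bound 3.7% and 2.78%, beside 13% and 12.9%. The ratio of cluster share to genome share was then 0.404 and 0.413 in brain and 0.285 and 0.215 in thymocytes. With the whole brain lists it was 0.897 and 0.839. The order of the shares over the tissues stayed (exact permutation p = 0.0111, one-sided). The skin lists kept 11210 and 10846 peaks, so this p does not set list length aside. Brain against thymocytes alone was not tested. At 38882 peaks the windows held 7 and 7 brain peaks and 11 and 7 thymocyte peaks.

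**Figure D2:**
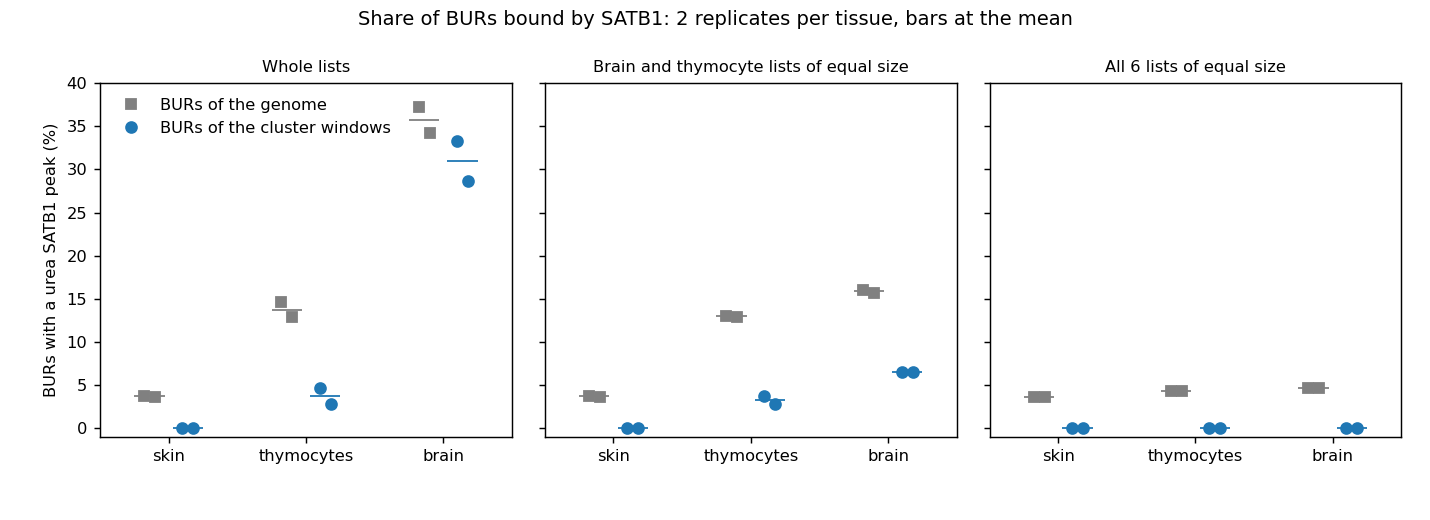
Share of BURs with a urea SATB1 peak, in percent, for skin, thymocytes and brain; squares are all BURs of the genome, circles the 108 BURs of the cluster windows, 2 replicates each, with a bar at their mean. With whole lists the brain circles stand at 33.3% and 28.7%; with brain and thymocyte lists of equal size they stand at 6.48%, and with all 6 lists of equal size every circle is at 0.

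Merging the brain and thymocyte peaks gave 48 urea SATB1 sites in the windows. All 48 had a brain peak, 34 of them in both brain replicates. Thymocyte peaks were found at 13 sites, 6 of them in both thymocyte replicates, so that 0 thymocyte sites were without a brain peak, and 11 of the 13 had it in both brain replicates. Over the genome, too, the study found nearly all BURs bound in thymocytes to be bound in brain, where the lists are longer. The overlap is therefore not particular to the clusters, and a genome share of sites was not computed.

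Most brain peaks of the windows were on BURs, and part of the thymocyte peaks was not. Of the 44 and 39 brain peaks, 81.8% and 79.5% touched a BUR, beside 73% and 72.8% over the genome. Of the 12 and 7 thymocyte peaks, 41.7% and 42.9% did, beside 75.8% and 77.6% over the genome. Counted by site, a thymocyte peak was present at 7 of the 39 sites on BURs and at 6 of the 9 sites off BURs. These counts are small and the difference was not tested. The site chr18:37420753-37421821 counts as on a BUR through its brain peaks only, since the thymocyte peak there touched none.

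**Figure D3:**
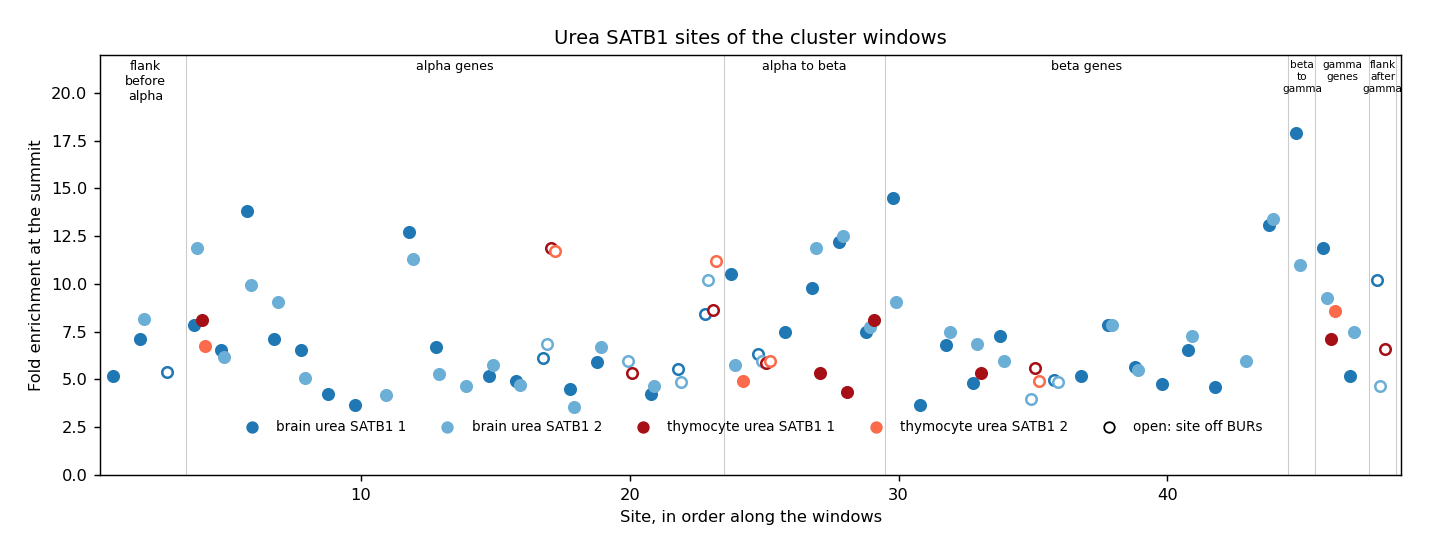
Fold enrichment at the summit (vertical axis) of the 48 urea SATB1 sites in their order along the windows (horizontal axis); blue shades are the brain replicates, red shades the thymocyte replicates, and open circles mark sites off BURs. Red points are found at 13 sites, always with a blue point, and the highest of them, 11.9 and 11.7, are open circles.

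The site of highest thymocyte fold enrichment, chr18:37284907-37285393, lay off BURs in the Pcdha11 intron, between the last 2 alpha variable exons, 32.7 kb after frame 13 and 18.2 kb before frame 14. Its fold enrichment was 11.9 and 11.7 in the thymocyte replicates and 6.1 and 6.87 in the brain replicates. The next site, chr18:37346932-37347433, was also off BURs and covered the 3′ end of the last alpha constant exon, starting 2025 bp after the last coding base, within the 3′ untranslated region, and running past the annotated gene end. There the fold enrichment was 8.64 and 11.2 in thymocytes and 8.44 and 10.2 in brain. Of the 6 constant exons of both arrays, this was the only one with a urea SATB1 peak.

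The other sites in both thymocyte replicates lay between exons. At chr18:37097305-37097791, on a BUR between the first 2 alpha frames, the fold enrichment was 8.13 and 6.76 in thymocytes and 7.86 and 11.9 in brain. At chr18:37852613-37853212, on a BUR between gamma frames 6 and 7, it was 7.11 and 8.58 in thymocytes and 11.9 and 9.28 in brain. At chr18:37375964-37376389, off BURs between the alpha and beta arrays, all 4 lists stood between 5.84 and 6.33. At chr18:37486622-37486947, off BURs in the beta array, the thymocyte lists had 5.59 and 4.94, and of the brain lists only replicate 2 had a peak, at 3.98. Outside member genes, the highest peak of thymocyte replicate 1 was at chr18:37420753-37421821, between the alpha and beta arrays, with 8.13 there, no peak in thymocyte replicate 2 and 7.48 and 7.73 in brain. At chr18:37360633-37361124, on a BUR just past the alpha array, thymocyte replicate 2 alone had a peak among the thymocyte lists, at 4.94, beside 10.5 and 5.74 in brain.

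Brain peaks of the highest fold enrichment outside any member gene were on BURs. The highest in replicate 1 lay just past the beta array, at chr18:37686415-37686914, with 17.9 in replicate 1 and 11 in replicate 2. The next, chr18:37429630-37430211 between Pcdhb1 and Pcdhb2, had 14.5 and 9.06. In replicate 2 the highest was chr18:37668099-37668744, between Pcdhb20 and Pcdhb21, with 13.4 there and 13.1 in replicate 1, followed by chr18:37410352-37410957 before Pcdhb1, with 12.5 there and 12.2 in replicate 1. Neither thymocyte list had a peak at the first 3, and at the last replicate 1 had 4.32.

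Brain peaks were unevenly spread. From the end of the beta array to gamma frame 6, the windows held no brain peak over 166 kb with 6 BUR summits. That span includes 52915 bp between the beta and gamma windows, where peaks were not counted. Each brain list had 2 summits between the beta and gamma genes, only 1 of them in the windows, so the span was not free of brain peaks. The longest stretch without any brain peak inside a window, 160 kb, took in gamma frames 8 to 22 and the gamma constant exons, and held 10 BUR summits. Another of 76.5 kb lay over alpha frames 7 to 12 and held 6 BUR summits. Across the windows, BURs bound in both brain replicates (28) had a median in vitro fold enrichment of 6.93 and those bound in neither (69) of 5.19, with overlapping ranges of 2.74 to 12.6 and 2.52 to 17.6. Their median AT contents were 71% and 70.9%.

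At the annotated transcript starts of the members, urea SATB1 peaks were rare, with shares near those of the genome. The members had 47 distinct annotated transcript starts, and 6 of them (12.8%) were within 1 kb of a BUR, against 7.72% of all protein-coding transcript starts of the genome. Brain SATB1 peaks were within 1 kb of 2 and 2 member starts (4.26% each), against 4.14% and 3.73% over the genome. These were the starts of Pcdhb3, with fold enrichments of 4.79 and 6.85, and Pcdhb10, with 7.87 and 7.85. Thymocyte urea SATB1 reached 1 and 0 starts (2.13% and 0%), against 1.79% and 1.63% over the genome, and the 1 start was that of Pcdhb3, with a fold enrichment of 5.33. Skin SATB1 reached 0 starts in either list, against 0.505% and 0.52% over the genome.

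No urea SATB1 summit fell inside a frame, in any of the 6 lists. Of the annotated variable exons, Pcdhb13 was the only one touched in both replicates of a tissue. Its brain peaks, with fold enrichments of 6.52 and 7.29, were centred 968 and 1069 bp after the stop codon, on a BUR. The last alpha variable exon (frame 14, transcript Pcdha11-202) was touched in brain replicate 2 at 5.97 and in thymocyte replicate 1 at 5.33, with summits 207 and 67 bp after the stop codon.

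**Figure D4:**
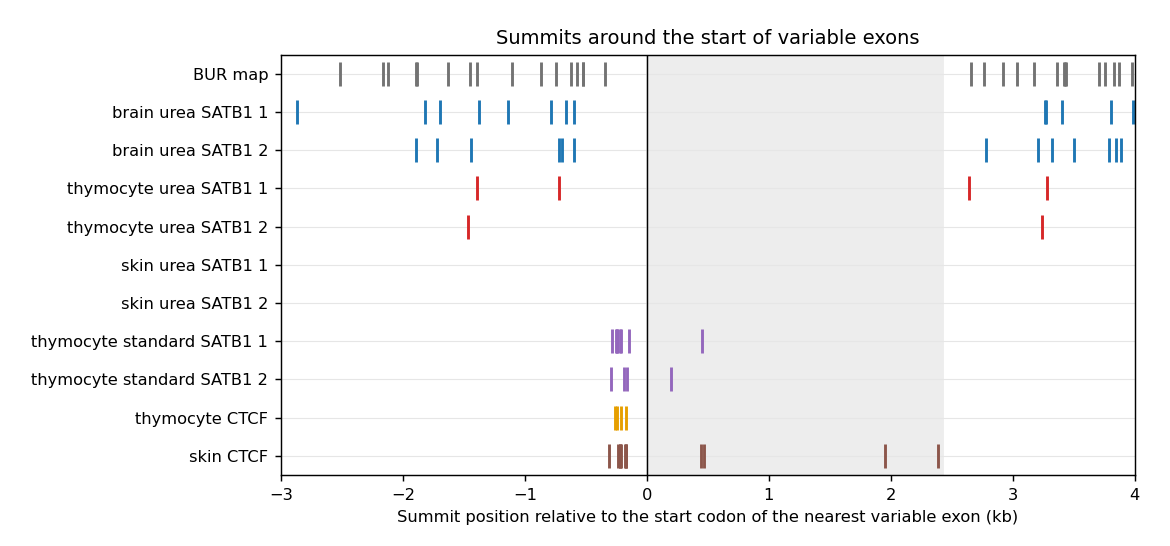
Position of peak summits relative to the start codon of the nearest variable exon, in kb, from 3 kb before to 4 kb after it, with 1 row per list; the grey band marks the median frame length of 2428 bp. Standard SATB1 and CTCF summits sit within 310 bp before the start codon or inside a frame, while BUR and urea SATB1 summits lie outside the frames, and those before a start codon are at least 342 bp from it.

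Standard SATB1 ChIP-seq and CTCF gave another picture, with peaks at the promoters of the 3′ gamma exons. Standard replicates 1 and 2 had 16 and 11 peaks in the windows and thymocyte CTCF had 7, and every one of them fell in the gamma window. Skin CTCF had 18, of which 13 were in the gamma window. The alpha and beta windows held 0 peaks of both standard SATB1 lists and of thymocyte CTCF. Relative to the genome, the density was 0.926 and 1.13 times for standard SATB1, 0.959 for thymocyte CTCF and 1.6 for skin CTCF.

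The standard and CTCF peaks merged into 30 sites, and 0 of these touched any of the 48 urea SATB1 sites. Over the genome such contact was also rare: 1.66% and 2.11% of the standard SATB1 peaks, 2.32% of thymocyte CTCF and 2.76% of skin CTCF peaks touched a urea SATB1 peak of brain or thymocytes. The closest approach was 623 bp, between the urea site before gamma frame 7 and a skin CTCF peak at that frame's promoter. Of the 16 peaks of standard replicate 1, 1 touched a BUR (6.25%, beside 3.51% over the genome), and 0 of the 11 of replicate 2 did (4.7% over the genome). Of the 7 thymocyte and 18 skin CTCF peaks 0 did, beside 2.57% and 3.9% over the genome.

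Thymocyte CTCF peaks marked 4 gamma variable exons, each within 500 bp before the start codon. Frame 14 (Pcdhgc5-201) had the highest fold enrichment, 10.9, followed by frame 18 at 7.96, frame 16 at 6.79 and frame 20 (Pcdhgc5-208), the C-type position furthest from the constant exons, at 4.78. The summits lay 167 to 258 bp before the start codon. Skin CTCF had a peak before frames 14, 16 and 18 as well, at 6.73, 4.71 and 4.42. At frame 20 its peak, at 8.36, was inside the frame, with its summit 2388 bp after the start codon, and did not overlap the thymocyte one.

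Skin CTCF peaks were found at 8 further frames: gamma frames 1, 7, 15 and 19, alpha frames 7 and 8, Pcdhb3 and Pcdhb16. Their fold enrichments ran from 3.61 to 4.42, below the 5.68 median of the whole skin CTCF list. Of all 12 skin CTCF peaks at frames, 8 had the summit 174 to 310 bp before the start codon and 4 had it inside the frame, at alpha frames 7 and 8, Pcdhb3 and gamma frame 20. With 1 list per tissue, the difference between skin and thymocyte CTCF has no replicate check and was not tested, and the skin list is the longer, with 31509 peaks against 20323. At annotated transcript starts, 2 of 47 (4.26%) had a thymocyte CTCF peak within 1 kb and 3 of 47 (6.38%) a skin CTCF peak, against 10.9% and 12.8% of all starts. Of the 10 gamma starts, 2 had a peak in each tissue, and the remaining skin peak was at 1 of the 26 beta starts.

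Standard SATB1 peaks stood at 7 gamma frames in replicate 1 (12, 14, 16, 17, 18, 20 and 21) and at 4 in replicate 2 (14, 17, 18 and 21). These 4 frames had a peak in both replicates, but at frame 14 the peaks of the replicates did not overlap. There the summit lay 150 bp before the start codon in replicate 1 and 199 bp after it, inside the frame, in replicate 2. The replicate 2 peak did not touch the thymocyte CTCF peak of that frame. At frame 14 the fold enrichment was 6.81 and 5.38, at frame 17 (Pcdhgc5-204) 6.54 and 6.46, at frame 18 5.92 and 5.02, and at frame 21 (Pcdhgc5-205) 5.49 and 5.99. All 4 frames with a thymocyte CTCF peak were among the 7, while frames 12, 17 and 21 had standard SATB1 without thymocyte CTCF. Over the windows, 43.8% of the replicate 1 and 36.4% of the replicate 2 standard peaks touched a thymocyte CTCF peak. The study reports that such overlap is common over the genome, with another CTCF list, so it is not particular to these promoters. A genome share was not computed here. Summits before a start codon lay 150 to 292 bp from it. At frame 20 replicate 1 reached 9.46 and replicate 2 had no peak.

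Compared with other genes these promoters were sparsely marked. Standard SATB1 peaks lay within 1 kb of 4 and 3 of the 47 annotated member starts (8.51% and 6.38%), against 51.4% and 39.4% of all protein-coding starts. For annotated variable exons, standard SATB1 touched 4 and 3 of 41, and thymocyte urea SATB1 1 and 0. The mean difference of 3 exons had a p of 0.333 in an exact two-sided permutation test, the smallest that 2 against 2 samples allow, so this design could not pass the threshold of 0.05.

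**Figure D5:**
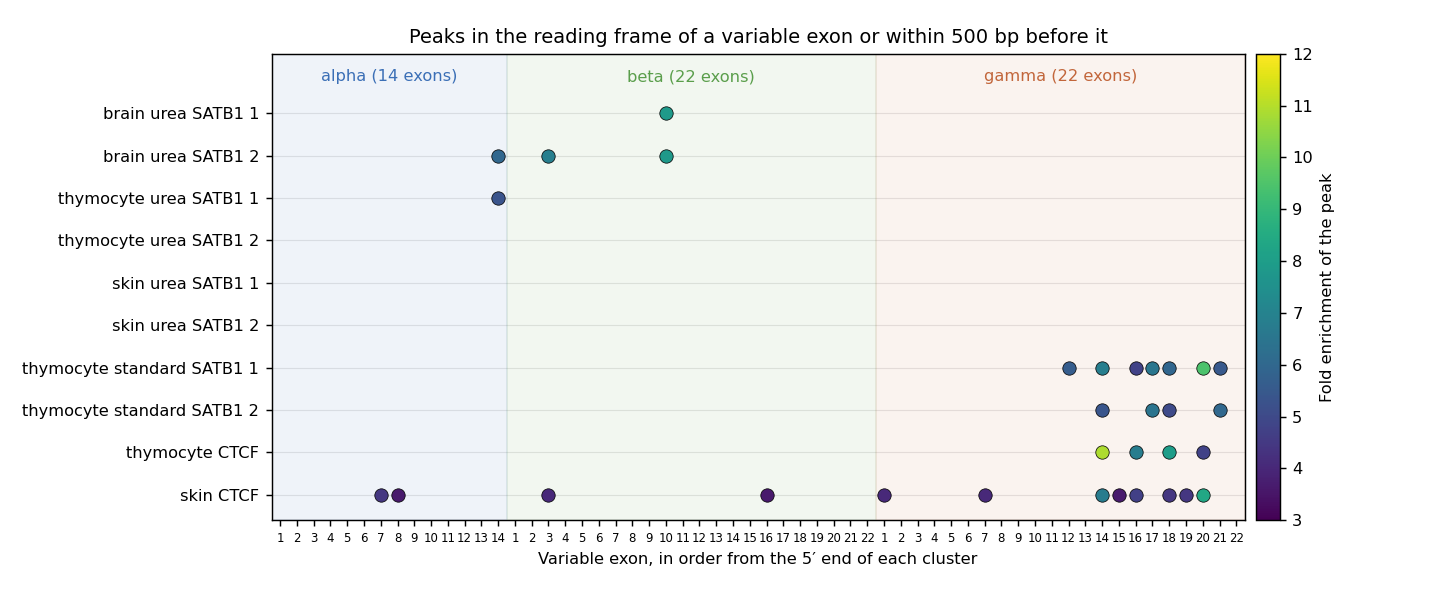
Peaks in the reading frame of each of the 58 variable exons or within 500 bp before it; exons run along the horizontal axis in order from the 5′ end of each cluster, lists along the vertical axis, and colour gives the fold enrichment. Standard SATB1 and thymocyte CTCF points occupy gamma exons 12 to 21, skin CTCF points reach 12 exons in the 3 clusters, and urea SATB1 points mark 3 exons.

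Of the 58 frames with the 500 bp before them, 37 had no peak in any of the 11 lists, among them 10 of the 14 alpha, 17 of the 22 beta and 10 of the 22 gamma frames. A share for comparable exons over the genome was not computed, so this count is not shown to be particular to the clusters. The GC content before the gamma frames with a CTCF peak in either tissue (8) had a median of 44.9%, and before the other 14 of 43.2%, with overlapping ranges of 38.8% to 60.2% and 37% to 55%.

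On the gamma constant exons, the only peak of any list was in 1 standard SATB1 replicate. In replicate 1 a peak of fold enrichment 3.97 covered constant exon 1. In replicate 2 a peak of 5.02 lay in the intron after it, at chr18:37985073-37985239, without overlap. Both replicates had a peak in the intron between constant exons 2 and 3, at chr18:37995297-37995545, with 6.5 and 6.1. No CTCF peak of either tissue touched any of the 6 constant exons.

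The highest standard SATB1 and CTCF peaks of the windows lay past the gamma array, in introns of Diap1, which encodes an actin-nucleating formin. At 3 sites, 10.1, 35.5 and 41.4 kb after the end of the gamma genes, standard SATB1 replicates 1 and 2, thymocyte CTCF and skin CTCF all had a peak. At the farthest of them, chr18:38042939-38043664, the fold enrichments were 25, 10.3, 14.7 and 9.65. At the nearest, chr18:38011621-38012213, they were 10.5, 5.74, 14.5 and 10.3, and at the middle one, chr18:38036986-38037352, 5.8, 5.85, 8.88 and 7.74. The only other site with all 4 lists was the promoter of gamma frame 18. How often all 4 coincide over the genome was not counted. A urea SATB1 site, chr18:38018798-38019240, lay between the nearest and the middle one and touched neither, with 10.2 and 4.64 in brain and 6.61 in thymocyte replicate 1. The remaining peak of both standard lists lay at the start of Taf7, a subunit gene of the basal transcription factor TFIID between the beta and gamma arrays, with 7.72 and 5.82.

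Protocadherins outside the clusters were looked up for comparison, and 12 of the 13 listed were in the annotation. Brain SATB1 peaks were within 1 kb of a start of 1 and 1 of these 12 genes (Pcdh11x), and thymocyte and skin urea SATB1 peaks of 0 in any list. Inside the genes, urea SATB1 peaks were found at 9 of the 12 in each brain and thymocyte list and at 5 and 4 in skin. No share over all genes was computed for peaks inside genes, and the counts that follow are again for starts. Standard SATB1 marked 2 and 0 of them, and thymocyte and skin CTCF 3 each (Pcdh1, Pcdh15 and Pcdh7). Another 12 listed genes encode products that act on the clusters, among them Ctcf, the cohesin genes Rad21, Smc3 and Stag2, and Smchd1. Standard SATB1 marked 12 and 11 of them, thymocyte CTCF 5 and skin CTCF 6, brain urea SATB1 1 and 1 (Wapal), and thymocyte and skin urea SATB1 0 in any list. Among all protein-coding genes, standard SATB1 marked a start of 52.8% and 40.5%, thymocyte CTCF 12.5% and skin CTCF 15.1%. The urea SATB1 shares of all genes were 6.52% and 5.87% in brain, 2.74% and 2.5% in thymocytes and 0.827% and 0.845% in skin, so that counts of 0 or 1 among 12 genes were close to the background.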

How the data were processed

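Per the labels and methods, the authors aligned single-end reads to mm9 (Bowtie2 2.3.1, unique matches only) and ran MACS2 2.2.7 on each sample separately, with 0.01 as the limit for q-values. Whether an input library was used is not given in the sources used here. The deposited lists hold a fold enrichment, a ratio to the local background at the summit made by the authors' peak caller. The −log10 p and −log10 q of each peak and a display score derived from −log10 q were also made by the authors' caller, and of these the −log10 q was used for thresholds and ranks. The lists hold no counts, so the depth of each could not be examined and the precision is that of 2 replicates.

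Peaks overlapped a feature when they shared 1 bp, and all positions are 1-based. Densities and background shares use chromosomes 1 to 19, X and Y. Thymocyte urea replicates carry the labels' numbers. Variable exons were the longest exon of each annotated transcript outside the constant exons. Frames were open reading frames of at least 1800 bp on the forward strand of the assembly whose protein had at least 30% identity over 400 aligned residues to an annotated variable exon, and 4 others were dropped. Python 3.11.15, numpy 2.4.6, pysam 0.24.0, biopython 1.88 and matplotlib 3.10.9 were used, and the overlap and permutation functions were tested on simulated data. The alternatives tried were a stricter limit (−log10 q of 5 or more), summit or 50% overlap, equal list sizes, other flanks and start windows, removal of regions common to all lists, a replicate block and leaving out each replicate. Chosen after seeing the data were the frames in place of annotated exons, chromosome 18 as the background, and brain and thymocyte lists reduced to the shorter thymocyte length.

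The members and lists were chosen with earlier results of these data known. Named were the starts of highest thymocyte CTCF, C-type positions, exons or starts with SATB1 in both replicates, and per list the 2 highest peaks outside members or at constant exons, and sites described beyond these were chosen after their values were seen. C-type genes are not separate in this annotation and have no values by name. Satb1-/- and input samples and a further thymocyte CTCF sample are not analysed here.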

Additional observations from a re-analysis of the deposited data

How the results depend on the processing

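Of 58 recomputed values, 45 kept their direction and their side of the threshold or stayed close to the main value, and 0 changed direction. Of the others, 8 lost the threshold and 5 moved away from the main value. The 45 include all 9 for standard minus urea SATB1 at variable exons, which could not pass the threshold in any setting. A fall to 0 did not count as a change of direction. The brain minus skin difference in the share of cluster BURs bound, 31 percentage points, was 0 with all urea lists of equal size, where no list reached a cluster BUR (exact permutation p = 1), and 6.48 with brain and thymocyte lists of equal size (exact permutation p = 0.0111). In the latter setting the skin lists stayed shorter than the others. Leaving out 1 replicate gave 28.7 to 33.3 (exact p = 0.0333). The brain minus skin difference in the ratio to the genome share, 0.868, was likewise 0 with equal list sizes (exact permutation p = 1) and 0.408 with brain and thymocyte lists of equal size. With flanks of 200 kb it was 0.645 (exact p = 0.0667), and without 1 replicate 0.839 to 0.897, with an exact p of 0.0667, the smallest these arrangements allow, when a skin or thymocyte replicate was left out.

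Replicate numbers are shared by the tissues but only as numbers: with permutation within them (replicate block) the share kept 31 (exact p = 0.0278) and the ratio 0.868 (exact p = 0.0556, the smallest possible). Replicate 1 was above its group mean by 2.31 percentage points in brain and 0.926 in thymocytes.

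The difference of standard and urea SATB1 at variable exons stayed between 2 and 5 exons, and without 1 replicate between 2.5 and 3.5. The BUR density ratio, 1.29, was 1.05 with flanks of 200 kb. Member starts with thymocyte CTCF, 2, became 4 with the frames and the 500 bp before them, and those with skin CTCF, 3, became 5 with 2.5 kb or with the exon itself and 12 with the frames, which count more exons. No region with a peak in all 11 lists lay in the windows. Since the lists hold no counts, a missing peak shows only that none passed the limit.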
